A study of Mus musculus with 2 samples.

Results

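The 8 genes described here encode cytoskeletal proteins of intestinal tuft cells. They are the keratin genes Krt8, Krt18, Krt19 and Krt20, the actin bundler genes Avil, Vil1 and Espn, and Dclk1, a microtubule-associated kinase used as a tuft cell marker. They were taken by symbol, and all 8 were found among the 17134 genes of the table. The RNA came from small intestinal tuft cells of untreated mice, sorted by surface EpCAM, carried by epithelial cells, together with Siglec-F, a sialic acid binding lectin that tuft cells display. One library was labelled with the genotype Spib+Villin-cre (called WT) and 1 with the genotype Spibfl/flVillin-cre (called Spib_KO). Both carried Villin-cre, in which regulatory sequence of the villin gene drives Cre recombinase throughout the intestinal epithelium and not only in tuft cells. The deletion of Spib, which encodes an ETS family transcription factor, is therefore not limited to tuft cells. The labels give neither the number nor the age of the mice. The comparison asks which of these transcripts differ in sorted tuft cells when Spib is deleted.

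Tuft cells are chemosensory cells whose apical end carries a tuft of long, stiff microvilli on deep actin rootlets. Keratins form intermediate filaments from equal parts of a type I and a type II chain, and simple epithelia use Krt8 (type II) with Krt18, Krt19 or Krt20 (type I). Villin and advillin, from Vil1 and Avil, belong to the gelsolin family and end in a headpiece domain that lets them bundle actin. Villin is found in the brush border of all absorptive cells, while advillin marks tuft cells in the gut. Espin, from Espn, cross-links parallel actin filaments in microvilli and in hair cell stereocilia. DCLK1 joins doublecortin domains, which bind microtubules, to a protein kinase domain, and its gene has an upstream and a downstream promoter that give long and short proteins.

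The libraries held 17925421 reads assigned to genes in WT against 17228665 in Spib_KO. Each genotype is a single library, so the genotypes could not be tested against each other. Values describe these libraries, and the 95% intervals cover only the counting error of reads. Reads copied by amplification without molecular tags may stem from 1 molecule, so the intervals may be too narrow for the molecules sampled. Where a pair of values is given, WT comes first. Spib had 6266 reads in WT against 48 in Spib_KO. Epcam was at 1722 and 1653 CPM, and Siglecf at 953 and 1048 CPM, where CPM is the read count scaled to library size. Of 24 measured tuft markers, which exclude the 8 genes, 0 were higher and 1, Plcb2, was lower, by the rule given below. Over all measured genes 2.33% were higher and 2.18% lower by that rule. Single tuft markers differed in both directions. The log2 ratios of the 24, Spib_KO over WT, ran from -1.09 to 1.10, with 16 above 0 and 8 below. The 25 listed tuft markers together summed to 18535 CPM in WT against 18547 CPM in Spib_KO, and the sums of the other marker lists likewise cover every listed gene in the table. In bulk samples, fewer cells of a type and less RNA per cell cannot be told apart.

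The sequences at the 2 annotated starts of Dclk1 are shown because Dclk1 was the member whose read count and length-corrected value went apart. Dclk1 (gene 13175) spans chromosome 3 from 55242303 to 55539068 on the plus strand of GRCm38.p6 (mm10). The first sequence is chr3:55242114-55242363 and the second is chr3:55461478-55461727, each the 250 bases before a start, from RefSeq on GRCm38.p6, with the starts 219364 bases apart. Capitals mark the letters TTCCTC. Read on the other strand they are GAGGAA, the core of the PU box bound by Spi-B and its relative PU.1.
Dclk1 upstream start: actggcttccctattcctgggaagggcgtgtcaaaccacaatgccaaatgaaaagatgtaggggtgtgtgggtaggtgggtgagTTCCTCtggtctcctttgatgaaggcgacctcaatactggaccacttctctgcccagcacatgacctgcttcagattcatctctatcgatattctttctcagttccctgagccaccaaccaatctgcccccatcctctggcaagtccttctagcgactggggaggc
Dclk1 downstream start: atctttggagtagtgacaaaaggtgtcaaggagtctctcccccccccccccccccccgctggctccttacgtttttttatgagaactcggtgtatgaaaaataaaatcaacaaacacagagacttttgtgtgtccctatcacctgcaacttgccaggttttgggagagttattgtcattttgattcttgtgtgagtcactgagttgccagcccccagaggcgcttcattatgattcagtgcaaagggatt

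GAGGAA, searched on both strands in windows of 250 bases before to 50 after a start, stood once at the upstream Dclk1 start, at position -166 counted from it, and was absent from the downstream window. Of 10 starts listed for 7 of the 8 genes, 3 held it, at Dclk1, Avil and Krt20, which is 30% beside 28.3% of 32851 promoters. The octamer ATGCAAAT, the POU factor motif, was in 0 of the 10 windows and in 1.74% of all promoters. Krt19 had no entry. These are matches of letters only.

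None of the 8 genes passed the size rule in either direction. A gene was measured if it had 5 CPM and 30 reads in at least 1 library, and the call was higher or lower where the interval of its log2 ratio, Spib_KO over WT, lay at least 1 from 0, a 2-fold difference. All 8 were measured. Of 10707 measured genes 2.33% were called higher and 2.18% lower, so 0 of 8 is near this background. Among the 8 genes 3 ratios lay above 0 and 5 below, with a median of -0.06 beside 0.01 over all measured genes. The widest difference was 1.31-fold, for Espn.

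**Figure D1:**
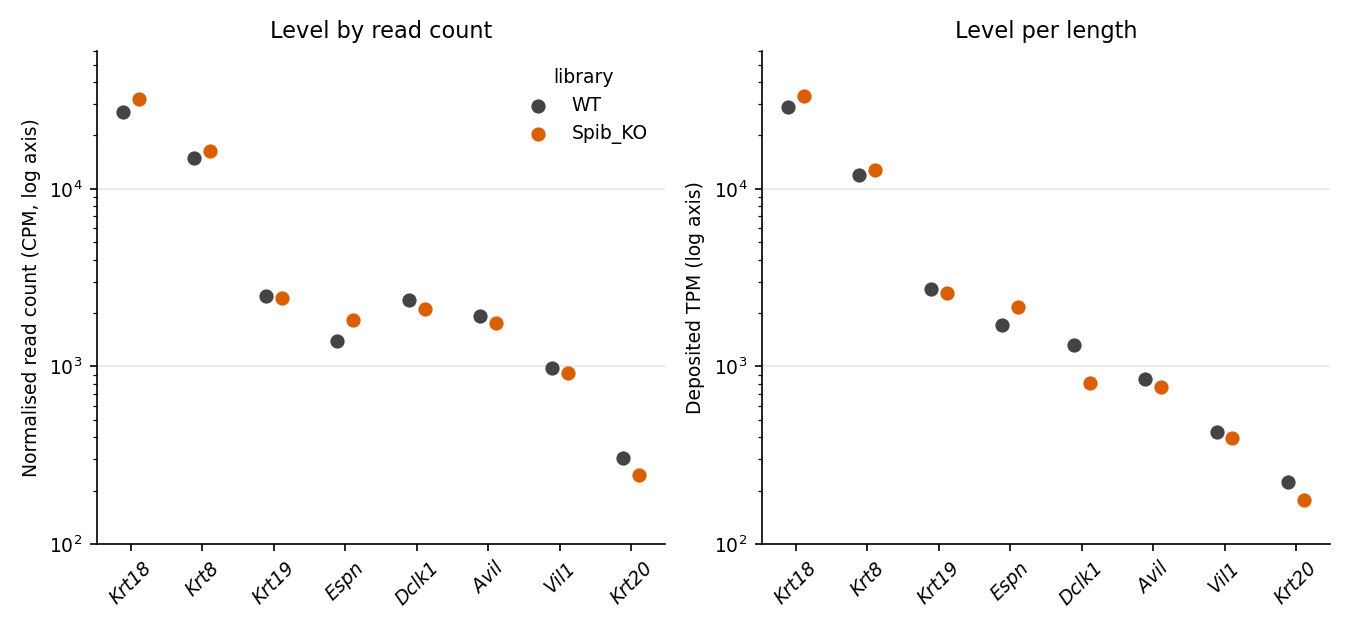
Levels of the 8 genes in the WT (dark grey) and Spib_KO (orange) library, as normalised read count on the left and as deposited TPM, which is per length, on the right, both on a log axis. Each point is 1 library. The Dclk1 points lie much further apart on the right (1324 and 811 TPM) than on the left (2369 and 2100 CPM).

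Krt18 and Krt8 were the genes with the most and second most reads in both libraries. Krt18 (gene 16668, chromosome 15, 102028216 to 102032026) had 27027 CPM in WT against 31923 CPM in Spib_KO, and Krt8 (gene 16691, chromosome 15, 101996711 to 102004342) had 14958 and 16280 CPM. Their log2 ratios were 0.24 (0.23 to 0.25) and 0.12 (0.11 to 0.13), so both had ratios slightly above 0. Together they took 4.22% of all reads in WT and 4.80% in Spib_KO. RefSeq lists a pseudogene of Krt8, Krt8-ps, which has no row in the table, and how the counting treated reads shared with it is not given in the sources used here.

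Krt19 and Krt20 had ratios below 0 on the same scale. Krt19 (gene 16669, chromosome 11, 100140810 to 100145926), a short keratin of ducts and intestine, had 2496 CPM in WT against 2432 CPM in Spib_KO, with a log2 ratio of -0.04 (-0.06 to -0.02). Krt20 (gene 66809, chromosome 11, 99428385 to 99438153), a keratin of differentiated villus cells, was the least abundant member and had 5501 and 4209 reads. Its level was 306 CPM (298 to 314) in WT against 245 CPM (238 to 253) in Spib_KO, with a log2 ratio of -0.32 (-0.38 to -0.26).

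Per length, the type I chains exceeded the type II chain. In deposited TPM, Krt18 was 2.43 times Krt8 in WT and 2.62 times Krt8 in Spib_KO. The sum of Krt18, Krt19 and Krt20 was 2.67 times Krt8 in WT and 2.84 times Krt8 in Spib_KO. Krt18 made up 90.7% of the sum of the 3 type I members in WT and 92.4% in Spib_KO, and Krt20 made up 0.70% and 0.49%. The balance between these chains was thus close in the 2 libraries, at the level of transcripts.

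The 2 villin family members both had ratios slightly below 0. Avil (gene 11567, chromosome 10, 127000065 to 127020994) had 1935 CPM in WT against 1750 CPM in Spib_KO, with a log2 ratio of -0.15 (-0.17 to -0.12). Vil1 (gene 22349, chromosome 1, 74409384 to 74435560) had 977 and 918 CPM, a ratio of -0.09 (-0.12 to -0.06). Per length, Avil had a TPM of 852 and 764 and Vil1 one of 426 and 395, so Avil was the more abundant in both libraries. Vil1 shares 51 bases with Usp37, which had 1489 and 1827 reads.

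Espn was the member furthest above 0. Espn (gene 56226, chromosome 4, 152120331 to 152152414) had 25024 reads in WT against 31152 in Spib_KO, or 1391 CPM (1373 to 1408) and 1815 CPM (1795 to 1836), with a log2 ratio of 0.38 (0.36 to 0.41). Its deposited TPM was 1718 in WT against 2163 in Spib_KO, with a log2 ratio of 0.33. Relative to the other bundlers, Espn was 4.04 times Vil1 per length in WT and 5.47 times Vil1 in Spib_KO. Of the 3 bundler genes, Espn thus had a ratio above 0, and Avil and Vil1 had ratios below 0.

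Dclk1 gave different pictures by read count and by TPM. It had 42637 reads in WT against 36043 in Spib_KO, or 2369 CPM (2347 to 2392) and 2100 CPM (2079 to 2122), with a log2 ratio of -0.17 (-0.19 to -0.15) and 1.13-fold lower. Its deposited TPM was 1324 in WT against 811 in Spib_KO, with a log2 ratio of -0.71 and 1.63-fold lower, and its deposited FPKM was 1054 and 644, also a ratio of -0.71. Both measures put Dclk1 lower in Spib_KO, and neither passed its size rule. The rule for TPM was a difference of at least 1 in log2(value + 1) among genes with a TPM of 5 or more in at least 1 library, which called 2.23% of 9106 genes higher, 2.81% lower and 0 of the 8 members.

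**Figure D2:**
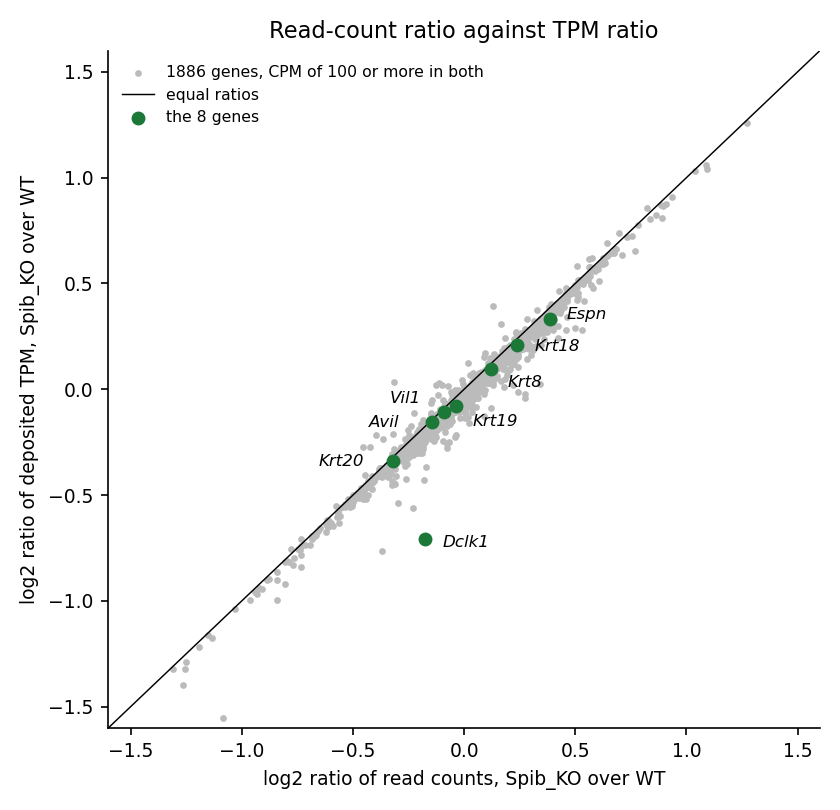
Log2 ratio of read counts (x axis) against log2 ratio of deposited TPM (y axis), both Spib_KO over WT, for 1886 genes with a CPM of 100 or more in both libraries (grey) and the 8 genes (green), of which 7 follow the line of equal ratios. Dclk1 lies at -0.17 and -0.71, and 7 genes fall outside the axes at -1.6 to 1.6.

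The other 7 members had TPM ratios within 0.06 of their count ratios. The TPM minus the count ratio ran from -0.05 for Espn to -0.01 for Avil, and it was -0.53 for Dclk1. Over the 1886 genes with a CPM of 100 or more in both libraries the median was -0.02, with quartiles of -0.04 and -0.02. No gene of that set lay below Dclk1. Among the 6863 genes with a CPM of 20 or more in both libraries, 11 lay below it.

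Read count and FPKM together give the length that was assigned to a gene in each library, as count divided by FPKM and by the total of reads. Krt8, Krt18, Krt20 and Vil1 were each 18.3 to 18.4 bases longer in Spib_KO, the same as the median of 18.3 bases over the 1886 genes. Krt8 had 1585 bases in WT against 1603 in Spib_KO, and Vil1 had 2897 and 2915. Krt19 had 1155 and 1180 bases, Avil 2868 and 2873, and Espn 1022 and 1053. Dclk1 had 2257 bases in WT and 3248 bases in Spib_KO, which is 991 bases or 43.9% more. That ratio was the highest of the 1886 genes, although 9 of them gained more bases.

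**Figure D3:**
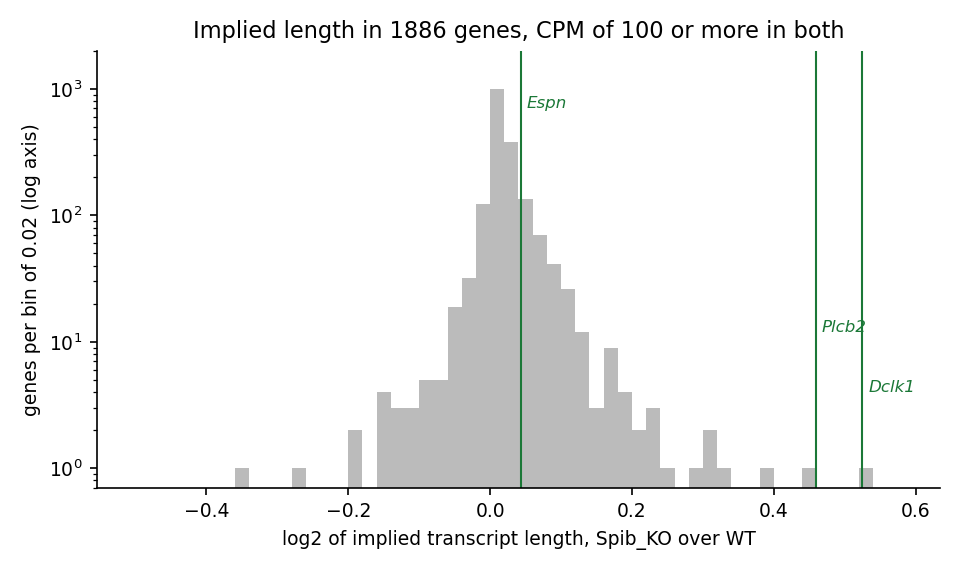
Histogram of the log2 ratio of implied transcript length, Spib_KO over WT, for 1886 genes with a CPM of 100 or more in both libraries, in bins of 0.02 with the number of genes on a log axis. Most genes sit next to 0, and lines mark Espn near the bulk and Plcb2 and Dclk1 at the right end.

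An annotation of the same assembly shows how far the lengths of these genes can range. For 128 genes with a single annotated transcript and a RefSeq match, the annotated length exceeded the implied length by a median of 222 bases in WT and 204 bases in Spib_KO. With these offsets added, Dclk1 came to 2480 bases in WT and 3452 bases in Spib_KO. The offsets are approximate for a given gene. Krt8, with 1 annotated transcript of 1958 bases, came to 1807 bases in both libraries, and Krt20, with 1 of 1927 bases, came to 1950. GENCODE M21 lists 11 coding Dclk1 transcripts of 413 to 7962 bases. Of these, 4 start at the upstream end of the gene and 7 near the downstream start shown above, between 55461728 and 55461972. The 7 coding transcripts that match a RefSeq entry are 4282 to 7962 bases long, so both implied values were below all of them. The coding transcripts without a RefSeq match are shorter, at 413, 1499, 1662 and 2922 bases. Espn came to 1244 bases in WT and 1257 bases in Spib_KO, near the short end of its 15 coding transcripts of 1142 to 4618 bases.

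The table has 1 value per gene and library, so the share of each Dclk1 transcript was not tested. The labels name no step that keeps strand, so a read from a stretch shared by overlapping genes could belong to either. The whole span of Dclk1, introns included, shares 25766 bases with the span of the long non-coding RNA gene Gm9831. It shares 12592 bases with that of the long non-coding RNA gene Gm31443, for which no counts are given. How much of these stretches lies in exons was not determined. Gm9831 had 2106 reads in WT against 3067 in Spib_KO, with a log2 ratio of 0.61, and its part in the Dclk1 values was not tested.

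Among the 1886 genes with a CPM of 100 or more in both libraries, Plcb2 had the TPM minus count ratio nearest to that of Dclk1, at -0.47, and the nearest genes below that level were not named. Plcb2, the phospholipase of taste transduction, had 682 CPM in WT against 321 CPM in Spib_KO, a count ratio of -1.09 (-1.13 to -1.04), with a TPM ratio of -1.55 and an implied length of 3351 and 4608 bases. The next 4 by TPM minus count ratio were Dop1b at -0.39, Strip2 at -0.33, Ctsc, the gene of cathepsin C, at -0.32 and Atf7ip at -0.32. These are differences of 2 ratios in 1 pair of libraries, and nothing on shared control is drawn from them.

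In TPM, the order of the 8 genes was the same in both libraries, from Krt18 through Krt8, Krt19, Espn, Dclk1, Avil and Vil1 to Krt20. The gaps on either side of Dclk1 differed between the libraries. Dclk1 was 1.56 times Avil in WT and 1.06 times Avil in Spib_KO, while Espn was 1.30 times Dclk1 in WT and 2.67 times Dclk1 in Spib_KO. Krt19 was 1.59 times Espn in WT and 1.20 times Espn in Spib_KO. There is no replicate spread against which to judge neighbours. Among all genes Krt18 ranked 2 by TPM in WT against 3 in Spib_KO, Krt8 ranked 5 in both, Dclk1 went from 127 to 198 and Krt20 from 703 to 845.

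Of the other keratins and the keratin linkers, 1 gene each was called, and all measured genes had 2.33% called higher. Among 22 other keratin genes, 6 were measured, of which 1 was higher and 0 lower, with a median of 0.32. The higher one was Krt27, a keratin of the hair follicle, at 39 reads in WT against 170 in Spib_KO, a ratio of 2.18 (1.68 to 2.73). Krt23 was the most abundant of them, with 784 CPM in WT against 682 CPM in Spib_KO and a ratio of -0.20. Of 15 measured genes listed as linkers of keratin to desmosomes and membranes, 1 was higher and 0 lower, with a median of 0.07. The list also holds the nuclear lamin gene Lmna, whose ratio of 0.07 was the median. The higher gene was Ppl, which encodes periplakin, at 47 and 159 reads, a ratio of 1.82 (1.35 to 2.33). Krt27, at 2.17 and 9.91 CPM, and Ppl, at 2.61 and 9.27 CPM, each passed the minimum of 5 CPM only in Spib_KO. The TPM of Ppl, 0.54 in WT and 1.91 in Spib_KO, was under the minimum of the TPM rule.

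The gelsolin and headpiece family was the list nearest to Avil and Vil1. Of its 7 measured members 1 was lower and 0 higher, with a median of 0.40. All measured genes had 2.33% called higher and 2.18% lower, so few or no calls are the usual outcome in lists of this size. Capg, which encodes an actin filament capping protein without a headpiece, was 3.96-fold lower, at 136 CPM in WT against 34.3 CPM in Spib_KO, a ratio of -1.99 (-2.12 to -1.86). Svil, which encodes supervillin, had 65.5 and 132 CPM, a ratio of 1.01 (0.91 to 1.11) whose lower bound missed the rule. The TPM rule, which has no interval, called Svil higher, at 12.1 TPM in WT against 25.4 TPM in Spib_KO. Among 12 other actin bundlers 0 were called and the median was -0.25, with Eps8l3 at 1025 and 952 CPM and Actn4, an alpha-actinin, at 778 and 618 CPM. Among 18 genes of the microvillus membrane and its motors 0 were called and the median was 0.00. The most abundant were the intermicrovillar adhesion genes Cdhr5, at 2787 and 3338 CPM, and Cdhr2, at 1694 and 1655 CPM.

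Actin itself was close in both libraries. Actb had 9279 CPM in WT against 10024 CPM in Spib_KO, a ratio of 0.11, and Actg1 had 1686 and 2046 CPM, a ratio of 0.28. Of 25 measured genes for actin and its general regulators 0 were called, with a median of 0.05, beside 2.33% higher and 2.18% lower over all measured genes.

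Among actin regulators best known from leukocytes, 4 of 8 measured were lower and 0 higher, beside 2.18% called lower over all measured genes. The median ratio was -1.06. Was had 200 reads in WT against 0 in Spib_KO, at least 63.6-fold lower against a floor of 3 counts in the Spib_KO library, Coro1a had 139 and 2 reads, a ratio of -5.74 (-9.11 to -4.17), and Plek had 910 and 22 reads. Dock8, an activator of the GTPase Cdc42, was the most abundant of the 4, at 239 and 109 CPM, a ratio of -1.13 (-1.21 to -1.06). Was, at 11.1 and 0 CPM, Coro1a, at 7.72 and 0.12 CPM, and Plek, at 50.6 and 1.28 CPM, passed the minimum of 5 CPM only in WT. A gene that passes only in WT cannot be called higher. Dock8 passed in both libraries. The list also holds genes at high level in both libraries, such as Vav1 at 1087 and 1039 CPM. T cell markers were lower beside this list, with 4 of 5 measured members lower. Each of these 4 also passed the minimum only in WT. The fifth measured T cell marker, Lck, had 80 and 135 reads, a ratio of 0.82. The summed level of the T cell markers was 60.7 CPM in WT against 15.2 CPM in Spib_KO. Cd3d, at 20 reads in WT, was below the minimum level and at 0 in Spib_KO. The 6 myeloid markers summed to 28.0 and 20.6 CPM, and of 3 measured 1 was lower, Lyz2, at 110 and 9 reads. Lyz2, at 6.11 and 0.52 CPM, likewise passed the minimum only in WT. Itgam had 206 and 94 reads and Adgre1 had 135 and 230 reads, with ratios of -1.06 and 0.83, and neither was called. Csf1r and C1qa, at 5 and 13 reads in WT, were below the minimum level and at 0 in Spib_KO. The part of either in the result was not tested.

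The doublecortin family and microtubule-associated proteins, the list nearest to Dclk1, had 1 of 19 measured members higher and 1 lower, with a median of -0.04. Over all measured genes 2.33% were higher and 2.18% lower, and with 19 genes a single call each way says little about the list. Dcdc2b, a doublecortin domain gene, had 20 reads in WT against 109 in Spib_KO, a ratio of 2.48 (1.82 to 3.28). At 1.11 CPM in WT and 6.35 CPM in Spib_KO, Dcdc2b passed the minimum of 5 CPM only in Spib_KO. Map2, a microtubule-associated protein of neuronal dendrites, had 317 and 67 reads, a ratio of -2.17 (-2.58 to -1.79). At 17.6 CPM in WT and 3.90 CPM in Spib_KO, Map2 passed that minimum only in WT. The closest relatives of Dclk1 were scarce. Dclk2 had 40 and 103 reads, a ratio of 1.42 with a lower bound of 0.89, and Dclk3, below the minimum level, had 49 and 55 reads, against 42637 and 36043 for Dclk1.

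**Figure D4:**
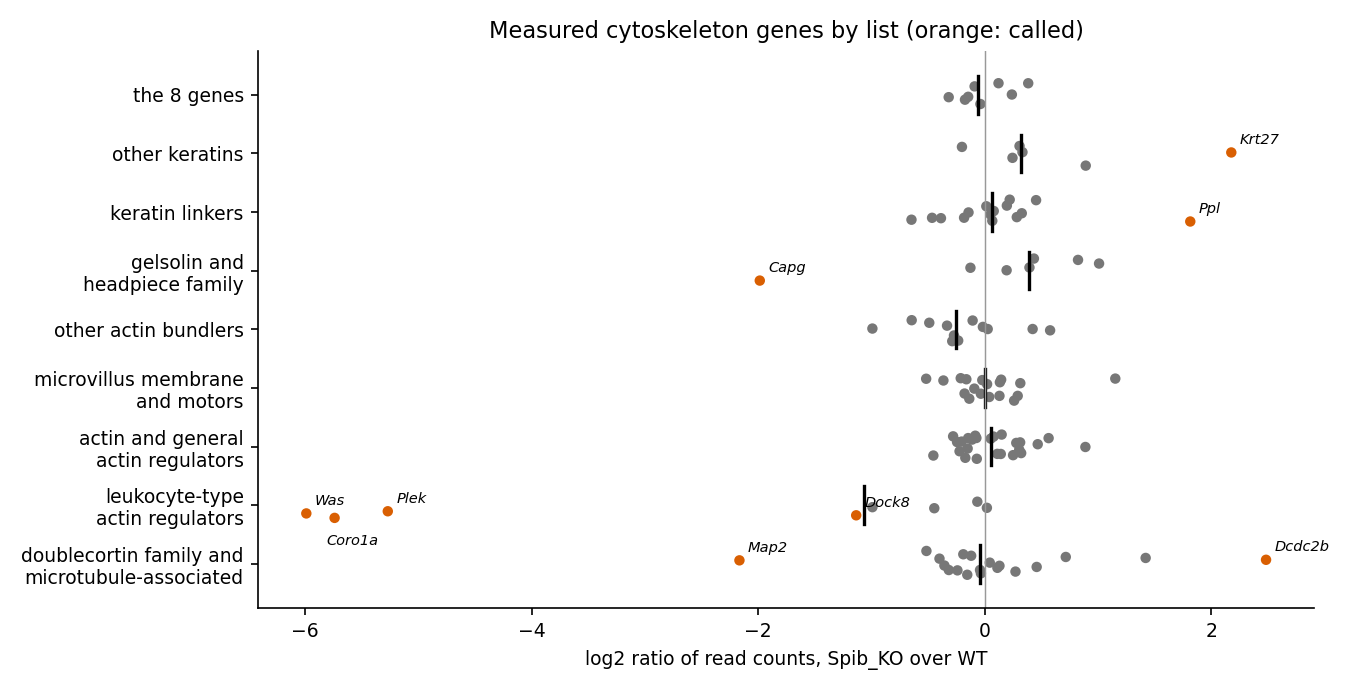
Log2 ratio of read counts, Spib_KO over WT, for each measured gene of the 8 genes and of 8 cytoskeleton lists, 1 point per gene, with a bar at the list median. Called genes are orange and named, Was is placed at its floor of 3 counts, and the 8 genes all lie between -0.32 and 0.38.

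Several of the 8 genes are also expressed by other epithelial cells, whose markers were present in both libraries. Enterocyte markers summed to 18817 CPM in WT against 19898 CPM in Spib_KO. Of 20 enterocyte markers, all measured, 0 were called, 17 lay below 0 and the median ratio was -0.45, while Fabp1, the most abundant, was at 6968 and 10611 CPM. Vil1 and Krt20, both known from enterocytes, had ratios of -0.09 and -0.32 beside this. Beside 2.18% lower and 2.33% higher over all measured genes, other cell types had these counts. Goblet cell markers summed to 2232 and 1391 CPM with 3 of 8 measured members lower, and Paneth cell markers to 2454 and 1038 CPM with 5 of 8 lower and 1 higher. Of the lower Paneth cell markers, Mptx2 passed the minimum of 5 CPM only in WT. Enteroendocrine markers summed to 545 and 575 CPM, of which 404 and 533 CPM were Sct, with 5 of 8 measured members lower and 1 higher. Each of the 5 lower ones passed the minimum only in WT, and the higher one only in Spib_KO. Gcg and Tph1, at 316 and 123 reads in WT, were at 0 in Spib_KO. Ghrl and Pyy, at 87 reads and 1 read in WT, were below the minimum level and also at 0 in Spib_KO. Stem and cycling markers had 0 of 6 called. B cell, mast cell and stromal markers summed to at most 5.61 CPM in either library. The part of these cell types in the values of the 8 genes was not tested.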

How the data were processed

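RNA was extracted with TRIzol, and cDNA was amplified by SMART-SeqII and made into libraries with a transposase, per the labels' protocols. HISAT and Bowtie2 2.2.3 with mm10 were used, per the submitters' processing notes. For the counting program, and for its gene annotation, the entry is: not given in the sources used here. The authors deposited an expected read count, an FPKM and a TPM value per gene and library, per the file headers. The deposited expected counts were rounded, since 19.0% of WT and 18.6% of Spib_KO values were not whole (0 among the 8 genes).

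Effective library totals were 17996059 and 17161039 by TMM (edgeR 4.0.16, R 4.3.3). Log2 ratios used a prior count of 0.5 per library, with an exact conditional binomial interval, and CPM intervals were exact Poisson intervals. Ratios of deposited TPM and FPKM were taken without a pseudocount, except in the TPM rule. The procedure was tested on simulated data. Python 3.11.15, numpy 2.4.6, scipy 1.17.1, pandas 2.3.3 and matplotlib 3.10.9 were used. Coordinates and promoters are from RefSeq on GRCm38.p6.

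The members and lists were chosen with earlier results of these data known. Named genes were the 8 members, Spib and Epcam, up to 4 called members of each cytoskeleton list (or the 2 most abundant), the 5 genes nearest to Dclk1 by TPM minus count ratio, the 3 most extreme each way and single markers. Krt23, Lmna, Svil, Vav1, Dclk2, Dclk3 and the overlapping genes were named after their values were seen. Protein sequences were not used here.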

Additional observations from a re-analysis of the deposited data

How the results depend on the processing

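No paired analysis was possible because there is 1 library per genotype, and no replicate could be left out. None of the 8 genes was called, and none changed sign, under the 16 alternatives planned for them. Not all of these could have changed the result. Changing the filter or the bound, or calling by the point estimate, left each ratio as it was, so no sign could change there. A 4-fold bound also could not call a gene that had missed the 2-fold bound. Scaling by the upper quartile, DESeq2 size factors (DESeq2 1.42.0), total counts, or totals that left out the 8 genes or the 20 genes with most reads shifted log2 ratios by -0.01 to 0.01. Scaling on the tuft marker list shifted all ratios by -0.11, which took Krt8 to 0.01, Krt18 to 0.13, Espn to 0.28 and Dclk1 to -0.28. The choice of measure moved Dclk1 further. Its ratio was -0.28 to -0.16 over the alternatives on counts and -0.71 with TPM or FPKM at either pseudocount (1 or 0.1). Within a library FPKM and TPM differ by a common factor, so FPKM was not a separate check on TPM. Neither pseudocount could move values as high as those of Dclk1 by much. The TPM minus count ratio of Dclk1 was -0.54 with FPKM in place of TPM, and 11 genes lay below it where 6863 genes with a CPM of 20 or more were ranked. Over 24 recomputed list medians the largest shift was 0.08, and the microvillus median of 0.00 came to -0.01 with DESeq2 size factors or total counts and -0.02 with TPM. The counts of called genes, 250 higher and 233 lower, moved with the rule. They were 595 and 716 without the expression filter and 101 and 106 at a CPM minimum of 20, which change the genes that are measured. They were 425 and 419 by the point estimate and 65 and 88 at a 4-fold bound, which keep the measured genes and change only the call. With FPKM (pseudocount 1) 165 were higher, and the cause was not tested. Depth did not limit the 8 genes, whose lowest count was 4209 reads, but variation between animals could not be measured.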

Other observations

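Some genes went the other way from Dclk1, with a TPM ratio above the count ratio. Among the 1886 genes with a CPM of 100 or more in both libraries, the 3 furthest were Mthfsl, Cabin1 and Hip1r, with TPM minus count ratios of 0.35, 0.26 and 0.18. Mthfsl had an implied length of 1241 bases in WT and 967 in Spib_KO, with 152 and 122 CPM but 154 and 158 TPM. Cabin1, the gene of a calcineurin inhibitor, had 6701 and 5568 bases. Hip1r, which encodes a clathrin adaptor that binds actin, had 3425 and 3002 bases, with a count ratio of -0.40 and a TPM ratio of -0.22. Relative to the median gene, 11 genes of this set had an implied length more than 0.2 higher on the log2 scale in Spib_KO and 4 had one more than 0.2 lower.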
